A study of Mus musculus with 6 samples.

Results

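The genes described here are 10 genes of microglia and of the complement system in the mouse retina: C1qa, C1qb, C1qc, C4b, Csf1r, Cx3cr1, Aif1, Tyrobp, Trem2 and Ctss. They were chosen by name, as known microglial markers and complement components, and all 10 were among the 22731 gene symbols of the deposited table. The study measured poly(A) RNA of whole retina by RNA sequencing in mice whose rod photoreceptors lack Dicer1, the ribonuclease that cuts microRNA precursors, and in control littermates. The 3 conditional knockout (cKO) libraries came from Dicer fl/fl mice carrying iCre75, a transgene that makes Cre recombinase in rod cells, and the 3 control libraries from Dicer fl/fl mice without it. Both groups thus carried the floxed alleles, and both were on a mixed C57BL/6J and SJL background and 4 weeks old. Every library was a pool of total RNA from 4 mice, with retinas taken from 8 to 10 AM. No group carried Cre without floxed Dicer1, so effects of the transgene and of the loss of Dicer1 cannot be told apart.

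Microglia are the resident macrophages of the retina. They survey the tissue through fine processes and engulf debris, dying photoreceptors and, during development, synapses. The classical complement pathway starts when the C1q complex, built of A, B and C chains, binds a surface and its proteases cut C4 and C2. In nervous tissue microglia are the main source of C1q, whereas C4 is made largely by other cells such as astrocytes. Injured or degenerating retinas are known for a rise of these genes, both as microglia multiply and as each cell makes more. In bulk tissue, fewer cells of a type and less RNA per cell cannot be told apart.

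No difference in these genes between cKO and control retinas was detected. None of the 9 genes that could be tested passed the threshold, an adjusted p of 0.05 over all genes, and 0 of them had an unadjusted p under 0.05. The test was limma on log2(RPKM + 0.5), where RPKM is the reads of a gene scaled by its length and by the depth of the library. Of the 12599 genes tested, 1 passed, or 0.00794%, and 719, or 5.71%, had an unadjusted p under 0.05. The log2 fold changes of the 9 genes ran from −0.14 to 0.10, with 7 below and 2 above 0. Their median was −0.051, against −0.0050 over all genes tested, of which 51.6% were below 0. The median turned to 0.022 without cKO replicate 4 and was 0.055 over the 4 libraries whose replicate numbers occur in both groups. The 3 values of each group overlapped for all 9 tested genes, while 11.7% of all tested genes had groups that did not overlap. Aif1, the remaining gene, lay under the expression filter and is described separately.

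**Figure D1:**
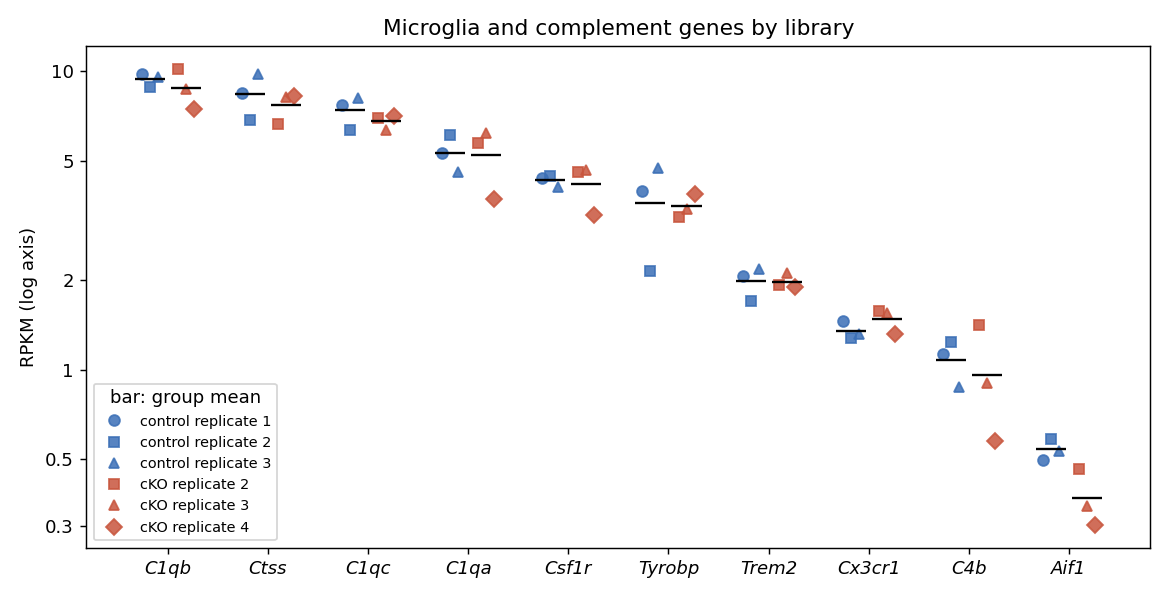
RPKM on a log axis for each of the 10 genes, ordered by mean level, with 1 point per library (blue, control; red, cKO; the symbol gives the replicate number) and a bar at the mean of each group. The levels span from 9.05 RPKM for C1qb to 0.457 RPKM for Aif1, and only for Aif1 do all cKO points lie below all control points.

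The libraries differed in depth, and this sets how firmly low genes can be read. Whole reads worked back from the RPKM values gave 12277860 to 28865074 reads in genes for the cKO libraries and 27059835 to 32744752 for the control libraries. cKO replicate 4 was the shallowest. Dicer1 itself was at 8.02, 7.06 and 7.90 RPKM in cKO replicates 2, 3 and 4 and at 8.48, 8.77 and 8.33 RPKM in control replicates 1, 2 and 3 (limma adjusted p = 0.931). All cKO values were the lower ones, as for 5.78% of the genes tested. The gene-level value also counts exons outside the floxed part and cells other than rods, and their share was not tested. The 1 gene that passed was Prm1, at 787 to 1137 RPKM in cKO and at most 0.385 RPKM in control libraries. Whether the Prm1 reads came from the gene itself or from the transgene was not tested. The labels do not say which pools shared litters or a preparation day, and p-values measure the spread between these pools only.

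The 3 C1q chain genes lie side by side on mouse chromosome 4 (in GRCm38, C1qb from 136880129 to 136886187, C1qc from 136889804 to 136893065 and C1qa from 136895917 to 136898803, all on the minus strand). These coordinates come from GENCODE M21 and serve to place the genes, since the submitters' processing notes name the older mm9 build. Promoter sequences of RefSeq (GRCm38.p6, from 250 bases before to 50 after a start) were found for 6 of the 10 genes: Ctss, C1qb, C1qc, Cx3cr1, Aif1 and Trem2. PU.1, the master transcription factor of macrophages and microglia, binds the core motif GAGGAA. That motif stood on either strand in 5 of the 6 promoters and in 28.3% of all 32851 promoters of the table. Its longer form GAGGAAGT stood in 2 of the 6, C1qc and Ctss, and in 3.20% of all promoters. The longer matches are also counted among the shorter ones. Cx3cr1 had no match in this window. The matches whose window lies wholly before the start are shown, that of C1qc in its longer form. The windows of the Aif1 match and of the longer Ctss match reach past the start, so these are not shown. The Ctss string below is a separate match of the shorter form. Capitals mark the match, and TTCCTC and ACTTCCTC are the motifs read on the other strand.
C1qb: cagcaggatggGAGGAAcagaggggtga
C1qc: gacggcagacACTTCCTCattttggcac
Ctss: acacagggttgGAGGAAaactttgtcct
Trem2: gcctcctttccTTCCTCcctccctcacg
The C1qb window is chr4:136886214-136886241 and the C1qc window chr4:136893092-136893119, both on the minus strand. The Ctss window is chr3:95526611-95526638 and the Trem2 window chr17:48346350-48346377, both on the plus strand. The matches start 30, 195, 164 and 40 bases before the transcription start in the order shown. A match is a string of letters and does not show that the factor binds there.

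C1qb, which encodes the B chain of C1q, was the most abundant of the 10 genes. Its level was 10.1, 8.65 and 7.41 RPKM in cKO replicates 2, 3 and 4 (264, 329 and 119 reads) and 9.77, 8.80 and 9.51 RPKM in control replicates 1, 2 and 3 (357, 364 and 409 reads). The highest and the lowest value were both cKO, with the 3 control values between them. The log2 fold change was −0.10 ± 0.12 (SE), with a 95% interval from −0.37 to 0.16 (limma adjusted p = 0.997).

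C1qa, the A chain, was at 5.73, 6.19 and 3.73 RPKM in cKO replicates 2, 3 and 4 and at 5.29, 6.07 and 4.58 RPKM in control replicates 1, 2 and 3. cKO replicate 4 was the lowest library, with 61 reads and a Poisson 95% interval from 2.85 to 4.79 RPKM, which covers counting error only. cKO replicate 2 lay within the control range and cKO replicate 3 above it. The estimated log2 fold change was −0.045 ± 0.18 (SE) with a 95% interval from −0.46 to 0.37 (limma adjusted p = 0.997). Without cKO replicate 4 it was 0.16.

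C1qc, the C chain, was at 6.97, 6.35 and 7.02 RPKM in cKO replicates 2, 3 and 4 and at 7.66, 6.33 and 8.10 RPKM in control replicates 1, 2 and 3. The cKO values sat within the control range. The mean was 6.78 ± 0.372 RPKM in cKO and 7.36 ± 0.923 RPKM in control retinas (SD, n = 3 each), and the log2 fold change −0.11 ± 0.10 (SE, limma adjusted p = 0.995). Reads per library (56 to 173) hold for the shortest gene length that returned whole reads, 527 bp. A length of 1054 bp returned whole reads too and would make every read number 2 times as large. For the other genes as well, a whole multiple of the length used would return whole reads.

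The chains of C1q join in equal numbers in the protein, so their RNA levels were also compared within each library, where a change of library scale drops out. The log2 ratio of C1qa to C1qb was −0.82, −0.48 and −0.99 in cKO replicates 2, 3 and 4 and −0.89, −0.54 and −1.05 in control replicates 1, 2 and 3. C1qa RNA was thus at 0.482 to 0.715 of C1qb RNA per length. C1qc stood at 0.686 to 0.947 of C1qb, with mean log2 ratios of −0.36 in cKO and −0.35 in control retinas. Neither ratio differed between the groups (exact two-sided permutation p = 0.7 and 1.0, both 1.0 after Benjamini-Hochberg adjustment over 5 ratios). With 3 against 3 libraries this test cannot go below 0.1.

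C4b, the complement component cut by the C1 protease, lies on chromosome 17 (34728380 to 34743882 in GRCm38). It was at 1.41, 0.90 and 0.576 RPKM in cKO replicates 2, 3 and 4 (186, 174 and 47 reads) and at 1.13, 1.24 and 0.874 RPKM in control replicates 1, 2 and 3 (209, 260 and 191 reads). Both the highest and the lowest value were in cKO libraries. Its spread within the cKO group was the widest of the 10 genes, a coefficient of variation of 43.6%, and its reads varied 19.2 times as much as counting alone would give (chi-square per degree of freedom). Its log2 fold change was −0.14 ± 0.20 (SE) with a 95% interval from −0.62 to 0.33 (limma adjusted p = 0.997), and it was 0.056 without cKO replicate 4. With a mean only just above it, C4b passed the filter of 1 RPKM narrowly.

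The value of C4b is uncertain in another respect, since its neighbour C4a is nearly identical in sequence. Of all 50-base stretches of the longest C4b transcript in GENCODE M21, 35.2% also occur in C4a, and how the authors assigned such reads is not given in the sources used here. C4a was listed at 0.228, 0.338 and 0.407 RPKM in cKO replicates 2, 3 and 4 and at 0.255, 0.287 and 0.276 RPKM in control replicates 1, 2 and 3. In the cKO libraries C4a was lowest where C4b was highest. No such sharing was found for C1qa, C1qb, C1qc, Aif1, Tyrobp, Trem2 and Ctss, and Cx3cr1 shared 1.06%.

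Csf1r, on chromosome 18, encodes the receptor for the growth factors CSF1 and IL-34, on which microglia depend for survival. It was at 4.59, 4.64 and 3.29 RPKM in cKO replicates 2, 3 and 4 and at 4.38, 4.44 and 4.08 RPKM in control replicates 1, 2 and 3, from 193 to 671 reads per library. The control values lay close together, with a coefficient of variation of 4.46%, and cKO replicate 4 lay below all of them while cKO replicates 2 and 3 lay above. Between the groups the log2 fold change was −0.051 ± 0.13 (SE) with a 95% interval from −0.34 to 0.24 (limma adjusted p = 0.997), and 0.093 without cKO replicate 4. The longest Csf1r transcript overlaps Hmgxb3 on the other strand, and 17.7% of its 50-base stretches occur in that gene. The length worked back from the RPKM was 3875 bp.

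Cx3cr1 encodes the receptor through which microglia sense the neuronal chemokine fractalkine. It was at 1.57, 1.54 and 1.31 RPKM in cKO replicates 2, 3 and 4 and at 1.46, 1.27 and 1.31 RPKM in control replicates 1, 2 and 3, from 74 to 206 reads. cKO replicates 2 and 3 exceeded every control, and cKO replicate 4 lay within their range. The log2 fold change, 0.096 ± 0.099 (SE), was the highest of the 9 genes and did not pass (95% interval from −0.13 to 0.33, limma adjusted p = 0.995). It stayed above 0 without each library in turn, between 0.060 and 0.16.

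Tyrobp and Trem2 act together: TREM2 binds lipids and lipoproteins at the microglial surface and signals through the adaptor protein that Tyrobp encodes. Tyrobp was at 3.24, 3.45 and 3.85 RPKM in cKO replicates 2, 3 and 4 (45, 70 and 33 reads) and at 3.95, 2.13 and 4.71 RPKM in control replicates 1, 2 and 3 (77, 47 and 108 reads). Control replicate 2 was the lowest library, with a Poisson 95% interval from 1.57 to 2.83 RPKM, and the cKO values lay between it and control replicates 1 and 3. The reads of the control libraries varied 10.9 times as much as counting would give, and those of the cKO libraries 0.287 times. For Tyrobp the log2 fold change, 0.026 ± 0.23 (SE), had a 95% interval from −0.50 to 0.55 (limma adjusted p = 0.997). Without control replicate 2 it was −0.26, and without control replicate 3 it was 0.23.

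Trem2 was at 1.91, 2.10 and 1.88 RPKM in cKO replicates 2, 3 and 4 (51, 82 and 31 reads) and at 2.06, 1.70 and 2.18 RPKM in control replicates 1, 2 and 3 (77, 72 and 96 reads). Its cKO values sat inside the control range. The means were 1.97 ± 0.119 RPKM in cKO and 1.98 ± 0.249 RPKM in control retinas (SD, n = 3 each), and the log2 fold change of −0.0024 ± 0.10 (SE, limma adjusted p = 0.998) was the smallest of the 9. The log2 ratio of Trem2 to Tyrobp ran from −1.03 to −0.71 in cKO and from −1.11 to −0.33 in control libraries, with no difference detected (exact two-sided permutation p = 0.9, adjusted 1.0).

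Ctss encodes cathepsin S, a protease of microglial lysosomes that also works outside the cell and cuts the fractalkine of neurons free. It was at 6.65, 8.13 and 8.24 RPKM in cKO replicates 2, 3 and 4 and at 8.40, 6.83 and 9.76 RPKM in control replicates 1, 2 and 3, from 169 to 536 reads. The libraries numbered 2 were the lowest of each group. For Ctss it was −0.10 ± 0.14 (SE) on the log2 scale, with a 95% interval running from −0.42 to 0.22 (limma adjusted p = 0.997). Set against C1qb within a library, the log2 ratio of Ctss averaged −0.18 in both groups, and that of Csf1r averaged −1.07 in cKO and −1.12 in control retinas (exact two-sided permutation p = 1.0 and 0.6, both 1.0 adjusted). The Ctss ratio was spread widely, from −0.61 to 0.15 in cKO and from −0.36 to 0.037 in control libraries.

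**Figure D2:**
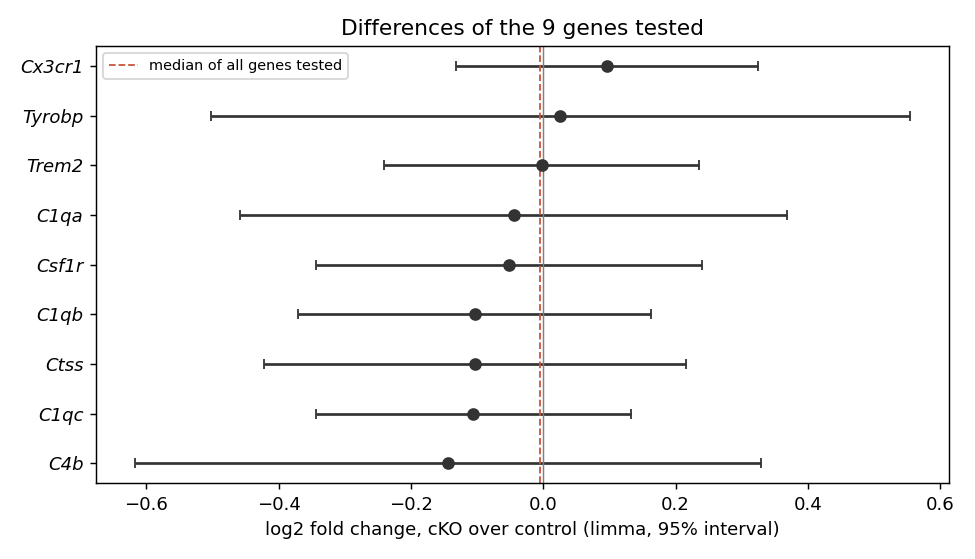
Log2 fold change of cKO over control for the 9 genes tested (points) with the 95% interval of the limma fit (bars). The grey line is at 0 and the dashed red line at the median of all genes tested, −0.0050. Every interval crosses 0, the narrowest being those of Cx3cr1, Trem2 and C1qc and the widest that of Tyrobp.

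The intervals say how large a change could have been missed. Because a pseudocount of 0.5 RPKM was added, the changes of low genes are understated. The upper ends corresponded to 1.10-fold for C1qc, 1.12-fold for C1qb, 1.16-fold for Ctss, 1.18-fold for Csf1r and Trem2, 1.25-fold for Cx3cr1, 1.26-fold for C4b, 1.29-fold for C1qa and 1.47-fold for Tyrobp. The lower ends lay between 0.652-fold for C4b and 0.912-fold for Cx3cr1. All these folds are ratios of RPKM + 0.5, not of RPKM. In RPKM alone the bounds lie further from 1, most of all for low genes such as C4b and Cx3cr1.

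Aif1 encodes IBA1, the calcium-binding protein by which microglia are most often stained. It was the lowest of the 10 genes and, with a mean of 0.457 RPKM, fell under the filter. It was at 0.466, 0.351 and 0.302 RPKM in cKO replicates 2, 3 and 4 and at 0.498, 0.586 and 0.536 RPKM in control replicates 1, 2 and 3. All cKO values were below all control values, and the cKO mean was 69.1% of the control mean. These levels rest on 10, 11 and 4 reads in cKO and 15, 20 and 19 reads in control libraries. The Poisson 95% interval of cKO replicate 4 runs from 0.0823 to 0.774 RPKM and covers every control value. An exact two-sided permutation test gave p = 0.1, which is as low as 3 against 3 libraries can reach. With no filter on low values the log2 fold change was −0.26 ± 0.083 (SE), with an unadjusted limma p of 0.0192 and an adjusted p of 0.799 over 19140 genes. Among the 1993 genes with a mean between 0.25 and 1 RPKM, a range chosen after its value was seen, 161 or 8.08% had all cKO values below all control values. The lower values of Aif1 did not pass the test.

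By level per length, C1qb stood first among the control libraries at 9.36 ± 0.503 RPKM, followed by Ctss at 8.33 ± 1.47, C1qc at 7.36 ± 0.923, C1qa at 5.31 ± 0.743, Csf1r at 4.3 ± 0.192 and Tyrobp at 3.60 ± 1.33 RPKM (SD, n = 3). Trem2 at 1.98 ± 0.249, Cx3cr1 at 1.35 ± 0.0971, C4b at 1.08 ± 0.186 and Aif1 at 0.540 ± 0.0444 RPKM came last. The ranges of C1qb and Ctss, of Ctss and C1qc, and of Tyrobp with each of C1qa, Csf1r and Trem2 overlapped over the control libraries, so the order within these pairs was not resolved. The summed level of the 10 genes was 37.6 to 42.7 RPKM in cKO and 39.4 to 45.6 RPKM in control libraries. These ranges overlapped, with cKO replicate 4 lowest. C1qb exceeded 49.8% of all tested genes in mean level, and Cx3cr1 5.29%.

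The genes did not vary as 1 block across the libraries. C1qa, C4b and Csf1r were lowest in cKO replicate 4, where they deviated by −0.43, −0.47 and −0.31 on the log2(RPKM + 0.5) scale from their own means over the 6 libraries. Tyrobp and Trem2 were lowest in control replicate 2, at −0.59 and −0.17, and highest in control replicate 3, at 0.39 and 0.12. Ctss was lowest in cKO replicate 2 and highest in control replicate 3. Pearson's r over the 6 libraries was 0.96 between Csf1r and C1qa and 0.86 between Trem2 and Tyrobp, but −0.59 between Tyrobp and C1qa and −0.63 between Ctss and C4b. Over the 36 pairs of the 9 genes its median was 0.32, with 22 pairs above 0. These correlations are descriptions over 6 points, and at each point both genes of a pair come from the same library.

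A trend with gene length moved with this division. In each library, the median deviation of the tested genes with the shortest models (up to 1789 bp) minus that of the genes with the longest (from 4319 bp) was taken. It was −0.20, 0.011 and 0.20 in cKO replicates 2, 3 and 4 and −0.028, −0.16 and 0.19 in control replicates 1, 2 and 3. Both groups thus held a library at each end. C4b, with the longest model at 5393 bp, was lowest in the library where short genes were relatively highest, and Tyrobp and Ctss, at 566 and 1355 bp, were high in control replicate 3. Other short genes went the other way. Pearson's r with this difference over the 6 libraries was −0.80 for C1qa (1082 bp), −0.52 for C1qb (1061 bp) and −0.45 for Aif1 (875 bp), signs they shared with C4b at −0.91, Csf1r at −0.74 and Cx3cr1 at −0.43. It was 0.88 for Ctss, 0.75 for Tyrobp, 0.53 for Trem2 (1088 bp) and 0.51 for C1qc. Trem2 and C1qb, of like length, thus had opposite signs. The log2 ratio of Ctss to C1qb rose over the libraries in the same order as this short-minus-long difference. Ratios within a library can thus still differ with the library. When each library's trend with length was removed, an alternative chosen after seeing the data, the median r over the 36 pairs was 0.62, with 31 pairs above 0. Genes of like length lose nearly the same amount in a library, so this step can itself raise r, and no conclusion is drawn from it. The SD of Tyrobp among controls went from 0.52 to 0.31 on the log2 scale, but that of C1qa from 0.19 to 0.34. Among cKO libraries the SD went from 0.21 to 0.40 for C1qb and from 0.075 to 0.28 for C1qc. It fell there for C4b and Ctss only. None of the 9 genes passed in that fit, and the log2 fold changes lay between −0.14 for C4b and 0.087 for Cx3cr1.

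**Figure D3:**
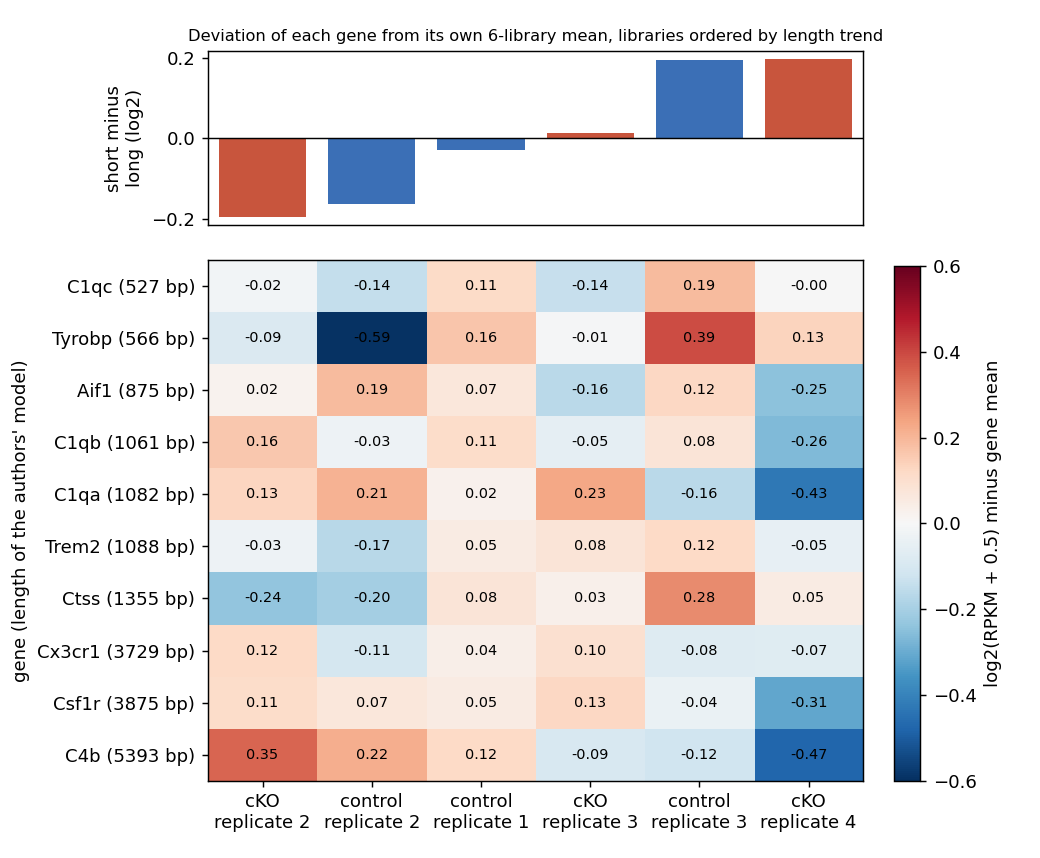
Lower panel: deviation of each gene in each library from the mean of that gene over the 6 libraries, on the log2(RPKM + 0.5) scale, with genes ordered by the length worked back from the RPKM (for C1qc the shortest length, 527 bp). Upper panel: median deviation of the shortest tested genes (up to 1789 bp) minus that of the longest (from 4319 bp), by which the libraries are ordered (red, cKO; blue, control). C4b, at the bottom, is highest at the left (0.35) and lowest at the right (−0.47), while Ctss is low in both libraries at the left (−0.24 and −0.20).

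The tested genes whose profile over the 6 libraries was most like the mean standardised profile of the 9 genes were Mamld1, Rasd2, Vat1l, Tor3a, Phlda1, Mbp, Hpcal4 and Ccdc63, with Pearson's r between 0.96 and 0.98. In all, 59 other tested genes had r above 0.9. The 8 are the top of a ranking of all other tested genes over 6 points, where high r can arise without any link. The profile also averages genes that did not vary as 1 block. This likeness is taken over 6 libraries, of which cKO replicate 4 and control replicate 2 lay lowest, and includes effects of library and group alike. None of the 8 stood on the lists of microglial genes used here.

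**Figure D4:**
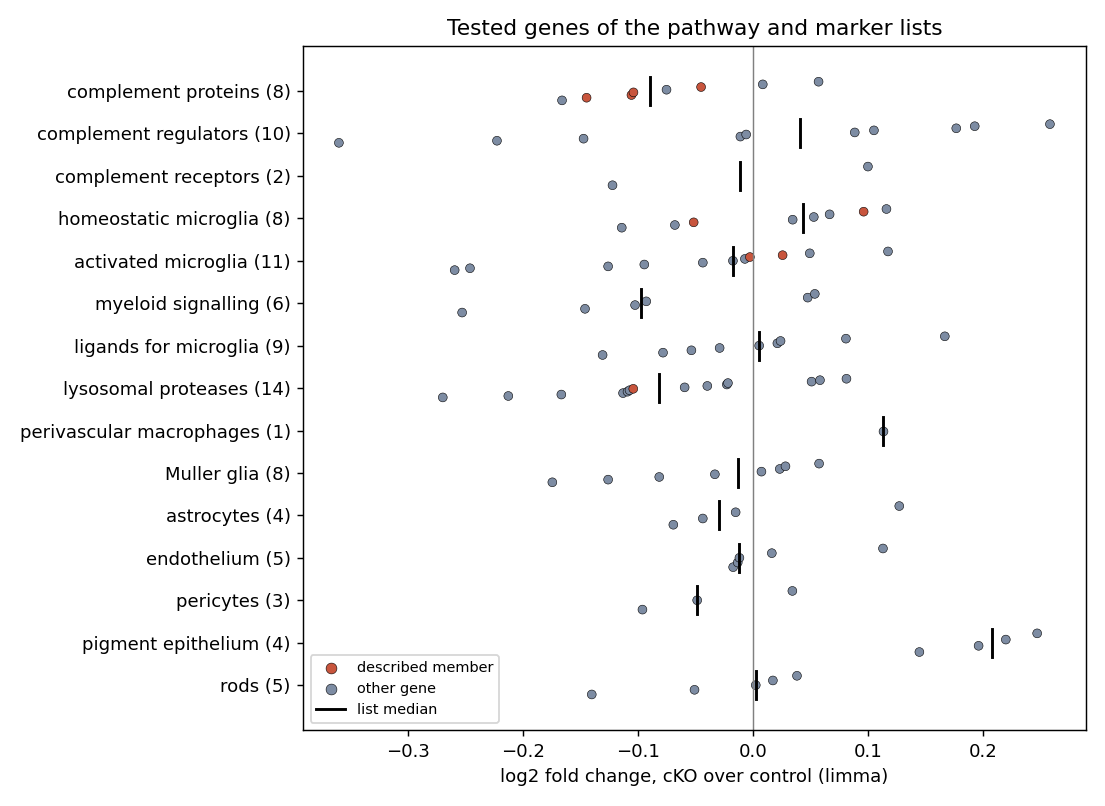
Log2 fold change of cKO over control for the tested genes of each list, with the number tested in parentheses. Red points are genes described here, grey points other genes of the list and black bars list medians. The points lie on both sides of 0 in 13 of the lists drawn, the exceptions being perivascular macrophages, with 1 gene, and pigment epithelium, with 4 genes above 0.

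Of 26 listed complement proteins 25 were in the table, and 17 of these had a mean under 1 RPKM. C3, the protein on which all complement pathways converge, was at 0.429, 0.462 and 0.373 RPKM in cKO replicates 2, 3 and 4 and at 0.588, 0.355 and 0.356 RPKM in control replicates 1, 2 and 3, with overlapping groups. C6 and the lectin gene Mbl1 were at 0 in every library. Of the 8 tested, 4 were C1qa, C1qb, C1qc and C4b, and 0 passed in either direction, with a median log2 fold change of −0.089. The 4 others (C2, C8g, Cfb and Cfp) had a median of −0.033, with 2 above and 2 below 0. The most abundant one beyond the C1q genes was Cfp, properdin, which stabilises the alternative pathway convertase, at 8.84 ± 2.09 RPKM in cKO and 9.23 ± 1.17 RPKM in control retinas (SD, n = 3 each). Cfb, factor B of the same pathway, had the smallest p, at 1.86 ± 0.293 and 2.14 ± 0.0805 RPKM (limma adjusted p = 0.965).

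Of the complement regulators, 10 of 19 in the table could be tested and 0 passed, with 5 above and 5 below 0 and a median of 0.042. Vtn, vitronectin, which blocks the terminal complex, was the most abundant at 470.5 ± 22.9 RPKM in cKO and 438 ± 34.2 RPKM in control retinas. Serping1, the C1 inhibitor, which inactivates the proteases bound to C1q, had the smallest p. It was at 5.54, 4.95 and 5.59 RPKM in cKO replicates 2, 3 and 4 and at 7.16, 6.33 and 7.59 RPKM in control replicates 1, 2 and 3. All cKO values were below all control values, as for 5.78% of the genes tested. The log2 fold change was −0.36 ± 0.093 (SE), and the limma adjusted p of 0.691 did not pass. Sez6l2, which encodes a complement-inhibiting protein of neurons, was at 37.9 ± 1.72 and 31.6 ± 0.803 RPKM in cKO and control retinas, with all cKO values above all control values, and did not pass either (limma adjusted p = 0.848). It was chosen after its values were seen.

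Of 11 complement receptor genes, only Calr and Lrp1, a chaperone that also binds C1q at the cell surface and a scavenger receptor, were above the filter. Calr was at 171 ± 18.3 RPKM in cKO and 159.7 ± 16.2 RPKM in control retinas and Lrp1 at 8.96 ± 1.19 and 9.83 ± 1.66 RPKM, and neither passed (limma adjusted p = 0.997 for both). Itgam, a chain of complement receptor 3, was at 0.391 ± 0.112 RPKM in cKO and 0.341 ± 0.0406 RPKM in control retinas.

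Of 16 genes listed here for resting microglia, 8 were tested and 0 passed, with 5 above and 3 below 0 and a median of 0.044. Those above 0 included Gpr84, at 0.053, and whether each listed gene marks the resting state was not tested. Tmem119 and P2ry12, which separate microglia from other macrophages, were at 1.39 ± 0.0785 and 0.770 ± 0.0544 RPKM in cKO and at 1.35 ± 0.0561 and 0.709 ± 0.0906 RPKM in control retinas. The groups overlapped for both genes. The transporter gene Slco2b1 had the smallest p of the list, at 2.14 ± 0.0208 RPKM in cKO and 1.93 ± 0.0752 RPKM in control retinas (limma adjusted p = 0.965). The cKO values of Slco2b1 all lay above the control values.

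Of 19 genes that activated microglia raise in disease, 11 were tested and 0 passed, with 3 above and 8 below 0 and a median of −0.017. Apoe, the most abundant at 1004 ± 49.9 RPKM in cKO and 1097 ± 101.3 RPKM in control retinas, is made chiefly by Müller glia in retina. Lgals3, galectin-3, had the smallest p, at 1.66 ± 0.184 and 2.08 ± 0.350 RPKM (limma adjusted p = 0.908). Clec7a, Itgax and Cst7, which mark the disease-associated state, were at most at 0.101, 0.0510 and 0.156 RPKM in any library. The inflammatory cytokine genes Tnf and Il1b rested on at most 4 and 6 reads.

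Of 28 myeloid signalling genes in the table, 6 were tested, 4 below and 2 above 0, and 0 passed. Hcls1, a substrate of antigen receptor kinases, was both the most abundant and the one with the smallest p, at 11.8 ± 0.647 RPKM in cKO and 14.2 ± 1.63 RPKM in control retinas. Its cKO values were all below the control values, and it did not pass (limma adjusted p = 0.865). Ptprc, the pan-leukocyte gene of CD45, was at 0.0504 to 0.105 RPKM in cKO and 0.0523 to 0.118 RPKM in control libraries.

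Genes for signals that other retinal cells send to microglia ranged from Ccl2 at a mean of 0.0555 RPKM to Gas6. Cx3cl1, the fractalkine that binds CX3CR1, was at 41.6 ± 5.42 RPKM in cKO and 40.8 ± 2.47 RPKM in control retinas. Il34, the main CSF1R ligand of retinal neurons, was at 4.77 ± 0.793 and 4.72 ± 0.367 RPKM, and Csf1 at 1.203 ± 0.1007 and 1.18 ± 0.141 RPKM. Gas6, a bridge between dying cells and phagocyte receptors, was the most abundant of the list and had its smallest p, at 169 ± 4.01 and 150.3 ± 5.85 RPKM. Of the 9 ligand genes tested 0 passed, 5 above and 4 below 0 (limma adjusted p of Gas6 = 0.923). All 3 cKO values of Gas6 were above the 3 control values, as for 5.91% of the genes tested.

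All 14 lysosomal protease and cystatin genes were tested, 11 below and 3 above 0, and 0 passed, with a median of −0.082. Cst3, cystatin C, an inhibitor of cathepsin S, was the most abundant at 1233 ± 259 and 1321 ± 221 RPKM in cKO and control retinas, and Ctsc had the smallest p, at 5.51 ± 0.503 and 6.46 ± 0.547 RPKM (limma adjusted p = 0.883).

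Markers of other cells that could carry these transcripts were set beside them. Blood leukocyte markers were near 0, their 6 genes summing to 0.546 to 0.783 RPKM in cKO and 0.468 to 0.669 RPKM in control libraries, with S100a9 at 1 to 5 reads. The red cell genes Hbb-b1 and Hba-a1 were listed at 0 in all libraries, and Alas2 was the third red cell gene, with summed levels of 0.568 to 1.09 RPKM in cKO and 0.983 to 1.32 RPKM in control libraries. Perivascular macrophage markers summed to 4.58 to 5.86 RPKM in cKO and 4.45 to 5.02 RPKM in control libraries. Most of this was Lyve1, whose cell source in these retinas was not tested. The defining genes of these macrophages, Mrc1 and Cd163, were at most at 0.207 and 0.0857 RPKM. Lyve1 was at 3.80 ± 0.188 RPKM in cKO and 3.48 ± 0.104 RPKM in control retinas (limma adjusted p = 0.965). Markers of Müller glia summed to 1990.1 to 2030.5 RPKM in cKO and 2017 to 2249 RPKM in control libraries, with median log2 fold changes of −0.013 for Müller glia, −0.029 for astrocytes, −0.012 for endothelium, −0.048 for pericytes and 0.0027 for rods. The 4 tested pigment epithelium genes were all above 0, with a median of 0.21 and 0 past the threshold, and their part in the values above was not tested. Aqp4, the water channel of glial endfeet, was at 13.6 ± 0.535 RPKM in cKO and 15.4 ± 0.447 RPKM in control retinas (limma adjusted p = 0.871), Gfap at 9.40 ± 1.13 and 9.72 ± 1.29 RPKM, Cldn5 at 31.3 ± 1.06 and 31.5 ± 1.51 RPKM, and Rgs5 at 11.2 ± 1.024 and 11.5 ± 0.772 RPKM. The smallest p among the other vascular and astrocyte markers belonged to S100b, Tie1 and Kcnj8, each with overlapping groups. Of the pigment epithelium genes, Ttr was at 104.6 ± 5.76 and 96.25 ± 22.8 RPKM and Rpe65 at 11.6 ± 0.946 and 9.75 ± 1.48 RPKM (limma adjusted p = 0.906).

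Over the 8 functional lists together, leaving out the 10 genes, 131 genes were in the table and 59 were tested. Of these 0 passed (3 with an unadjusted p under 0.05), and the median log2 fold change was −0.022. Their groups did not overlap in 9 of 59 or 15.3%, 5 above and 4 below, against 11.7% of all tested genes. Of the other genes on these lists, 67 had a mean above 0 and under 1 RPKM. Among them 4 had all cKO values above all control values and 2 had all below, against 3.73% and 5% of the 6541 genes in that range. The 4 were Siglech, Irf5, Ptpn6 and Inpp5d, and the 2 were Clec7a and Ccl4, all 6 named after their values were seen. Inpp5d, which encodes the lipid phosphatase SHIP1 that dampens TREM2 signalling, was at 0.9003, 1.107 and 0.924 RPKM in cKO replicates 2, 3 and 4 and at 0.588, 0.644 and 0.635 RPKM in control replicates 1, 2 and 3, from 69 to 196 reads. Siglech, a lectin of microglia, was at 0.426 ± 0.0582 RPKM in cKO and 0.325 ± 0.0315 RPKM in control retinas (SD, n = 3 each), from 15 to 42 reads. The 2 genes with lower cKO values rested on at most 9 reads per library for Clec7a and 3 for Ccl4. None of these 6 was in the test as reported, since all lay under the filter. With no filter on low values none of them passed either, and for Inpp5d the log2 fold change was 0.39 ± 0.080 (SE), with an unadjusted limma p of 0.00202 and an adjusted p of 0.584.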

How the data were processed

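The authors deposited 1 table of RPKM values per gene and library. The tools GSNAP and HTSeq and the build mm9 are named in the submitters' processing notes. Versions, annotation, length model and treatment of shared reads were not stated there. Retinas were homogenized in lots of 2, and cDNA was random-primed from poly(A) RNA with no strand mark, per the labels' protocols. Values were used as deposited. limma 3.58.1 (R 4.3.3) was fitted, with a variance trend and no block, to log2(RPKM + 0.5) of 12599 genes whose mean reached 1 RPKM. Two-sided tests were used, with Benjamini-Hochberg adjustment over all 12599. Single genes and ratios were compared by exact permutation tests.

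Whole reads were worked back from the RPKM steps, with the scale set by annotated lengths of single-transcript genes in GENCODE M21. They were found for 19134 of 19140 genes above 0, taking for each gene an annotated length or otherwise the shortest that gave whole reads. This could leave reads too few by a whole factor. The fit and the read recovery were tested on simulated data. The fit called 100 of 100 genes with a planted log2 change of 1 and 83 of 100 with one of 0.6 in size. It also called 17 unchanged genes among 12596 genes in all. The simulated reads had a fixed dispersion and no trend with gene length, unlike these libraries, so no conclusion is drawn from them.

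Groups were taken from the library titles. The members and gene lists were chosen with earlier results of these data known. The text names the members and, of each list, genes past the threshold, the most abundant one and the one with the smallest p, plus 8 genes of like profile; other genes were named for their known role or after their values were seen. Some genes that this rule gave are not reported here. Alternatives were other pseudocounts, filters, scaling, variance models, recovered reads with voom, a replicate block, leaving out each library, and removal of the length trend.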

Additional observations from a re-analysis of the deposited data

How the results depend on the processing

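None of the 9 tested genes passed in any of the 16 alternatives, and the lowest adjusted p among them was 0.399. Over all genes, 1 passed in the test as reported, 3 with no filter on low values, 3 with median-of-ratios scaling, 2 without the variance trend, 2 with voom on recovered reads and 3 with the length trend removed. The median log2 fold change of all genes shifted by 0.0051 with median-of-ratios scaling.

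Directions within the spread between libraries turned. With median-of-ratios scaling Trem2 was at 0.0028 (log2 fold change), with voom C1qa at 0.020 and Trem2 at 0.025, and with the length trend removed Trem2 at 0.019. Leaving out each library gave −0.17 to 0.16 for C1qa, −0.21 to 0.0026 for C1qb, −0.20 to −0.037 for C1qc, −0.36 to 0.056 for C4b, −0.13 to 0.093 for Csf1r, −0.23 to 0.011 for Ctss, 0.060 to 0.16 for Cx3cr1, −0.086 to 0.056 for Trem2, −0.26 to 0.23 for Tyrobp and −0.12 to 0.022 for their median. The group differences of the log2 ratios ran from −0.083 to 0.20 for C1qa to C1qb, −0.14 to 0.091 for C1qc to C1qb, −0.036 to 0.12 for Csf1r to C1qb, −0.17 to 0.21 for Ctss to C1qb and −0.20 to 0.19 for Trem2 to Tyrobp. The median was above 0 without cKO replicate 4. The cause was not tested.

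Both groups hold libraries numbered 2 and 3, with no statement that numbers mark a shared source. Deviations from the group means correlated at 0.47 for number 2 and −0.052 for number 3. On these 4 libraries the replicate block, with 1 residual degree of freedom, called 192 genes, 1 of them on a list (Cd59a), and no member. The log2 fold changes were the same with the replicate block or without it. They turned above 0 for C1qa (0.16), C1qb (0.033), C4b (0.081), Csf1r (0.10) and Trem2 (0.047). Cx3cr1 at 0.20 and Tyrobp at 0.055 stayed above 0, and C1qc at −0.10 and Ctss at −0.14 stayed below. The median was 0.055. Without the block 1 gene passed. The shallowest library held 4 reads of Aif1, 31 of Trem2 and 33 of Tyrobp, and what depth alone limits was not tested.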
